A study of Mus musculus with 5 samples.

Results

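The basic helix-loop-helix (bHLH) factor loci described here are those of 9 mouse genes, Atoh7, Neurog2, Neurod1, Neurod2, Neurod4, Ptf1a, Olig2, Bhlhe22 and Bhlhe23. Every region of the deposited Pou4f1 binding table that overlapped one of these genes or lay within 50 kb of it was taken, which gave 7 of 8038 regions. Of the 9 genes, 5 had such a region and 4 had none. Retinas came from wild-type, untreated mouse embryos of a mixed C57BL6 and 129 background at E16.5, and 4 retinas made 1 sample. The groups were rabbit anti-Pou4f1 (n = 2), rabbit IgG, which has no specific target and gives the background (n = 2), and rabbit anti-H3K9AC (n = 1, not analysed here). The assay was CUT&Tag, in which an antibody guides a transposase that cuts and tags the DNA beside the bound protein in whole cells. All cell types of the retina were pooled, so a site bound in few cells and a site with little signal per cell cannot be told apart, and a binding table holds no expression with which to check the tissue against its markers. The deposited value is a signal for each region and library, and none of the sources used here gives the reads per library. Nothing states that the pools shared no litter, so the p-values measure the spread between these samples, which may be technical.

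Proneural bHLH factors are transcription factors that start neuronal differentiation. They bind E-box sequences as dimers with the widely expressed E proteins, Id proteins block this pairing, and Hes proteins repress proneural genes downstream of Notch. In the developing retina Atoh7 gives progenitors the competence to become retinal ganglion cells (RGCs), and Neurog2 acts in progenitors beside it. Neurod1 is used in photoreceptors and amacrine cells, Neurod4 in amacrine cells, Ptf1a in horizontal and amacrine precursors, and Olig2 in a subset of progenitors. Bhlhe22 (also Bhlhb5) acts in amacrine and bipolar subtypes, and Bhlhe23 (also Bhlhb4) in rod bipolar cells. Neurod2 is a neuronal differentiation factor of the same family. Pou4f1 (Brn3a) is a POU homeodomain factor of differentiating RGCs, and the comparison asked which of these lineage genes carried a Pou4f1 region in the embryonic retina.

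Of the 9 genes, 5 had a region within 50 kb: Atoh7 with 3, and Neurog2, Neurod1, Bhlhe22 and Bhlhe23 with 1 each. Neurod2, Neurod4, Ptf1a and Olig2 had none. Among 21755 protein-coding genes of GENCODE M21 on mm10, 53.6% had a region within the same distance. A region overlapped 3 of the 9 gene bodies (6093 of all 21755 protein-coding genes), and one lay within 10 kb of 4 of the 9 (35.3% of all). At 100 kb the count was still 5 of the 9, against 14359 of all 21755.

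**Figure D1:**
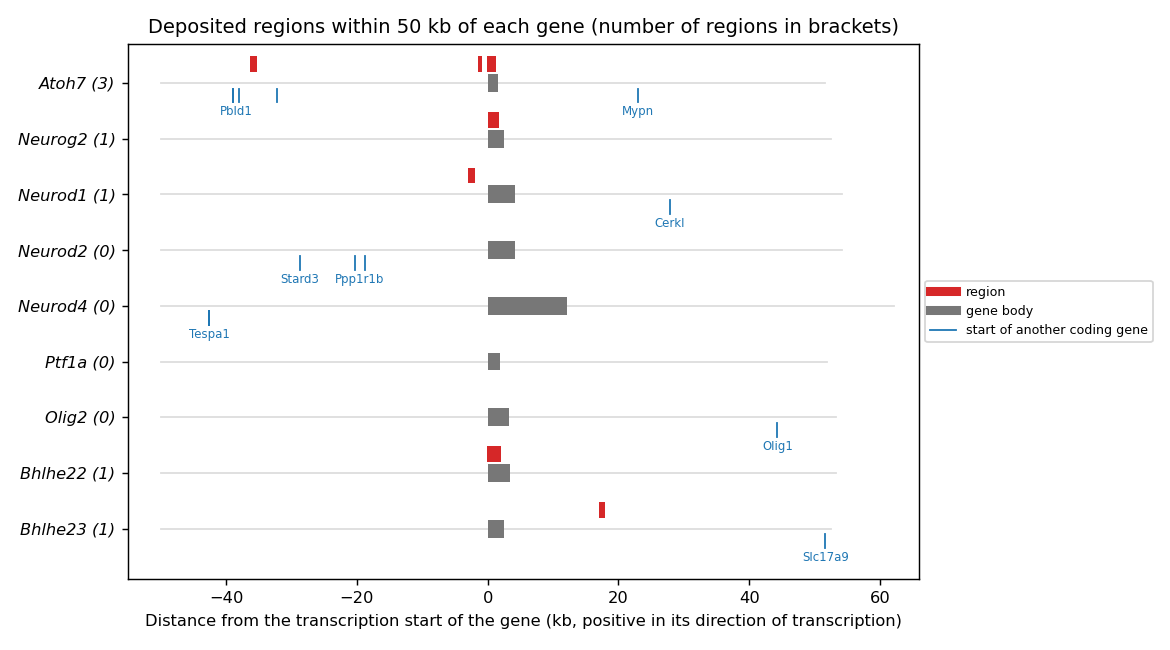
Position of the 7 regions (red) at the 9 loci, in kb from the transcription start of each gene along its direction of transcription. Grey bars are the genes, blue ticks the starts of other protein-coding genes, and regions lie at or near the starts of Atoh7, Neurog2, Neurod1 and Bhlhe22 and 17521 bp past that of Bhlhe23.

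The regions were of different kinds, which their sequence shows. The central 200 bp of 4 of them are printed 5′ to 3′ on the plus strand of GRCm38.p6 (mm10), because they represent a site upstream of a gene, a distal intergenic site, a GC-rich noncoding exon and a coding sequence. Capitals mark the letters ATNAATNAT, a core that POU factors of this class can bind, and the E-box letters CAGCTG or CAGATG preferred by proneural dimers, each searched on either strand. The first window was chr10:63098408-63098607, upstream of Atoh7. The second was chr2:180759280-180759479, downstream of Bhlhe23. The third was chr2:79459168-79459367, upstream of Neurod1, and the fourth was chr3:127633892-127634091, in the coding sequence of Neurog2.
Atoh7 upstream: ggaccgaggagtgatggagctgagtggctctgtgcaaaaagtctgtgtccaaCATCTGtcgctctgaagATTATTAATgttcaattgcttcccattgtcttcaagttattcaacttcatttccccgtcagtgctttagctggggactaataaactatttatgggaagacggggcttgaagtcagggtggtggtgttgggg
Bhlhe23 downstream: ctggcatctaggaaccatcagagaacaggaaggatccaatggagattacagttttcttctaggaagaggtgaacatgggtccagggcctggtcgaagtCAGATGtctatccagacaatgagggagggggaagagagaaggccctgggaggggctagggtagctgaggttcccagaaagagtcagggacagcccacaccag
Neurod1 upstream: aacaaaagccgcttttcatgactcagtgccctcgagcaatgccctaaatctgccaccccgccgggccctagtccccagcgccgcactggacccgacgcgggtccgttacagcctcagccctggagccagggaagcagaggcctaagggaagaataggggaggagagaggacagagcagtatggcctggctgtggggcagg
Neurog2 coding: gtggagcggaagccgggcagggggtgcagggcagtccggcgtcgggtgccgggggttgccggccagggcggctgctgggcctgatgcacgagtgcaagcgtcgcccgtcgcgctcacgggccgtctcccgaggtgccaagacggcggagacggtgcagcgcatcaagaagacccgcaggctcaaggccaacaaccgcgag

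In these windows the POU letters were found upstream of Atoh7 alone among the 7 loci regions. They read ATTAATAAT on the minus strand at chr10:63098477-63098485, at -26 bp from the region's centre and -1170 bp from the Atoh7 start. The E-box CAGATG lay beside them on the same strand at chr10:63098460-63098465, with 11 bases between both matches. The Bhlhe23 window held CAGATG on the plus strand at chr2:180759378-180759383, 2 bp past the region's centre. Neither set of letters was in the Neurod1 and Neurog2 windows.

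Atoh7 (ENSMUSG00000036816.4, chr10:63099651-63101279, plus strand) had the most regions. The region over its start (chr10:63099540-63100935, 1396 bp) began 111 bp before the gene and held 447 bp of coding sequence and 838 bp of UTR, so it covered most of this short gene. Its signal was 101 and 89.6 in Pou4f1 replicates 1 and 2, 8.47 in the control column named IgG and 0 in the one named Negative8, which was inferred to be the second IgG library. Both Pou4f1 libraries were above both controls. The difference on the log2(signal + 1) scale was 4.96 (SE 1.33), with an adjusted p of 0.0475 by limma. It ranked 6900 of 8038 by mean Pou4f1 signal, so 14.2% of regions had a lower one. The call was lost without either Pou4f1 replicate, in fits whose spread rests on the control pair alone. The difference was 4.88 without replicate 1 and 5.05 without replicate 2.

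The region upstream of Atoh7 (chr10:63098185-63098830, 646 bp) ended 821 bp before the gene, and its midpoint lay 1144 bp before the start. It held 342 bp of an exon of Gm38063, a gene model awaiting experimental support, and was otherwise intergenic. Pou4f1 signals were 248 (replicate 1) and 38.8 (replicate 2), and both controls were at 0. Replicate 1 was therefore 6.39 times replicate 2, a ratio reached by 60 of 8038 regions (0.746%), which include 18 regions with replicate 2 at 0. The rank was 2292 in replicate 1 and 7707 in replicate 2, and 5045 by the mean. Against IgG the log2 difference was 6.64 (SE 1.11) and the adjusted p 0.0197 by limma. Without replicate 1 the difference was 5.32 and without replicate 2 it was 7.96. These fits give no test of the region, since their spread comes from both controls at 0 and leaves out the gap between the Pou4f1 replicates. Both ChIP-qPCR primers that the paper lists for Atoh7 match bases of the window printed above, with the POU letters between them. With the same antibody, the paper reports that ChIP-qPCR of selected elements holding a predicted Pou4f1 motif matched its CUT&Tag data. The region was short, with 9.29% of all regions shorter.

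The third region of the Atoh7 window lay inside Pbld1, a neighbouring gene, at -35837 bp from the Atoh7 start (chr10:63063319-63064310, 992 bp). It held 667 bp of intron, 244 bp of UTR and 27 bp of coding sequence of Pbld1, and its midpoint was 10 bp from the start of a noncoding Pbld1 transcript. The nearest protein-coding start was that of Pbld1, 2232 bp away. Pou4f1 signals were 164 and 143, and both controls were at 0. The log2 difference was 7.27 (SE 0.38) with an adjusted p of 0.00222 by limma, the smallest of the 7 regions. It ranked 4673 of 8038. The POU letters were found 3 times here, all between chr10:63064086 and chr10:63064118, up to 300 bp past the centre. The matches at chr10:63064086-63064094 (plus strand) and chr10:63064090-63064098 (minus strand) overlap. Beside the POU letters were 3 matches to the homeodomain core TAATTA, which share bases with those letters or lie between them.

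Neurog2 (ENSMUSG00000027967.8, chr3:127633135-127635631, plus strand) had a region that began 36 bp past its start (chr3:127633171-127634811, 1641 bp). Of this region 48.1% was coding sequence, with 582 bp of UTR and 270 bp of intron. The signal was 152 and 170 in the Pou4f1 libraries, 2.56 in the control column IgG and 11.9 in the Negative8 library. The Pou4f1 replicates were close to each other and far above both controls. The log2 difference was 4.57 (SE 0.83) and the adjusted p 0.0232 by limma, with a rank of 4433. Leaving out either Pou4f1 replicate lost the call, in fits whose spread rests on the control pair alone. The differences were 4.66 without replicate 1 and 4.49 without replicate 2. With column totals as library sizes the Neurog2 difference fell to 0.79, with an adjusted p of 0.590 by limma. That setting gives antibody and control libraries equal totals over the called regions, so some fall is built in.

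Neurod1 (ENSMUSG00000034701.9, chr2:79452521-79456751, minus strand) had no region over its start. Its region lay upstream, with the midpoint 2516 bp before the start (chr2:79458742-79459792, 1051 bp), wholly in an exon of the noncoding gene Gm26755. A transcript of Cerkl, a neighbouring gene, started 2482 bp from the midpoint. Signals were 104 and 87.4 for Pou4f1, 0 for the control column IgG and 13.5 for the Negative8 library. Both Pou4f1 libraries were above both controls, with a log2 difference of 4.66 (SE 1.57), and the adjusted p of 0.0693 by limma missed the threshold. The difference was 2.73 without the library named IgG and 6.59 without the Negative8 library. At rank 6883 it stood beside the Atoh7 start region among the lowest of the 7.

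Bhlhe22 (ENSMUSG00000025128.7, chr3:18054174-18057517, plus strand) had the longest of these regions, 2097 bp over its start (chr3:18054050-18056146), and 98.3% of all regions were shorter. Coding sequence made up 50.8% of it and UTR another 908 bp. Signals were 155 and 132 for Pou4f1, 5.82 for the control column IgG and 52.4 for the Negative8 library. The last value was high for that library, since 4.21% of all regions reached it. The log2 difference was 2.92 (SE 1.23), the smallest of the 7, and the adjusted p was 0.103 by limma. The difference was 4.40 without the Negative8 library and 1.43 without the one named IgG. When each column was scaled to a common total, the Bhlhe22 difference turned to -1.01, with an adjusted p of 0.608, so its direction depended on the scaling. That scaling gives antibody and control libraries the same total over regions called for Pou4f1, which lowers the differences by construction. It moved the median of all regions from 5.22 to 2.74, and the Bhlhe22 difference fell further, from 2.92 to -1.01. Which scaling suits these libraries was not tested, so the direction at Bhlhe22 cannot be read from this setting.

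Bhlhe23 (ENSMUSG00000045493.4, chr2:180774381-180776900, minus strand) had an intergenic region 14503 bp beyond the end of the gene and 17521 bp from its start (chr2:180758881-180759878, 998 bp). No gene overlapped it, and the nearest start of any kind was that of Gm14343, 16024 bp away. Signals were 134 and 220.5 for Pou4f1, 0 for the control column IgG and 13.4 for the Negative8 library. Here replicate 2 was 1.65 times replicate 1. The log2 difference was 5.51 (SE 1.59) and the adjusted p 0.0534 by limma. The difference was 3.59 without the library named IgG and 7.43 without the Negative8 library. By mean Pou4f1 signal it was the highest of the 7, at rank 3901.

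**Figure D2:**
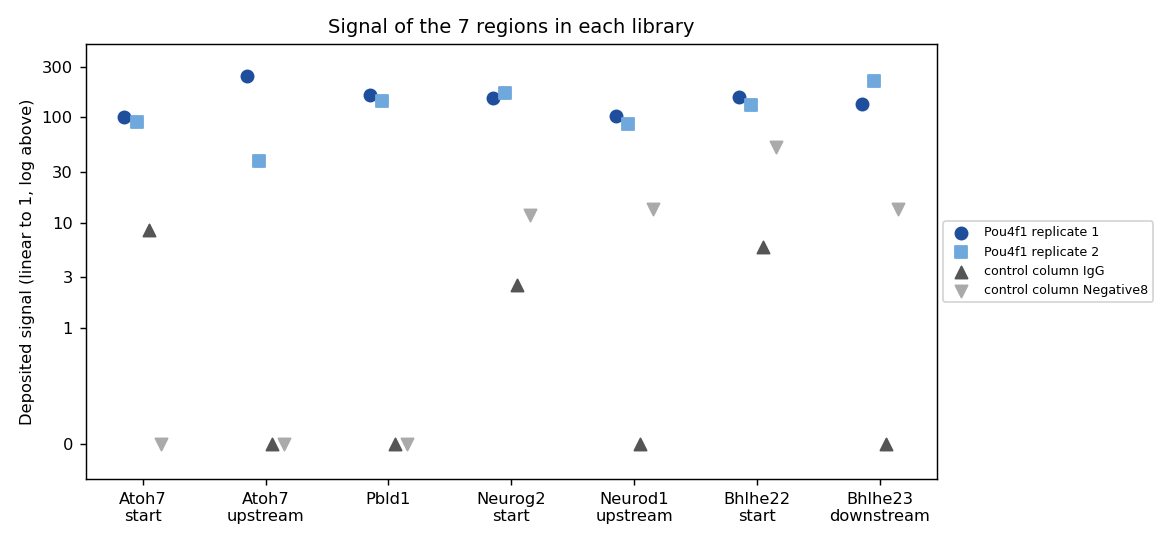
Deposited signal of the 7 regions in the 4 libraries, on an axis that is linear up to 1 and logarithmic above. Blue points are the Pou4f1 libraries and grey ones the controls, and in each region both blue points lie above both grey ones. The gap drawn on this axis is smallest at Bhlhe22 (132 against 52.4). In signal units it is smallest upstream of Atoh7 (38.8 against 0).

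Over the loci, 4 of 7 regions (57.1%) were higher in Pou4f1 than in IgG at an adjusted p under 0.05 by limma, beside 64.8% of all 8038 regions. None of the 7 was lower, and 18 of all regions were. Both Pou4f1 libraries exceeded both controls in 7 of 7 regions, beside 96.5% of all regions. The median log2 difference was 4.96 for the 7 and 5.22 for all. These shares are near those of the whole table, and the regions had been called by the authors from the same antibody libraries, so a difference from IgG is no independent finding. Leaving out 1 library at a time moved the count of 4 to 2 without Pou4f1 replicate 1, 2 without replicate 2, 6 without the library named IgG and 7 without the Negative8 library. Over all 8038 regions the same fits called 2360, 2484, 7587 and 7710 higher. With 1 control left, limma gave every region 1 common spread (SE 0.73), so the counts of 6 and 7 do not measure the samples of each region, and with 1 Pou4f1 library left the spread was that of the controls. Neurod1 and Bhlhe23 were called in both of these fits and Bhlhe22 without the Negative8 library.

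Calls varied with the control values. Over all regions, 99.7% were called where both controls were at 0, 39.4% where 1 was at 0 and 74.1% where none was. Among the 7 regions the respective calls were 2 of 2 (Atoh7 upstream and Pbld1), 1 of 3 (Atoh7 start, not Neurod1 or Bhlhe23) and 1 of 2 (Neurog2, not Bhlhe22). Signal times region length came in whole multiples of a step specific to each library. Divided by that step, it can be read as read depth summed over the bases of a region, in which overlapping reads add up. On that scale the control values above 0 at Atoh7 start, Neurod1 and Bhlhe23 were 155, 160 and 150. The most common value above 0 and up to 200 was 160 in either control, in 887 and 871 regions. At Bhlhe22 the summed depth was 1235 in the Negative8 library, against 7218 and 4538 in the Pou4f1 libraries. Where both controls are at 0 the fitted difference depends on the added 1 and is no bound on a fold.

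**Figure D3:**
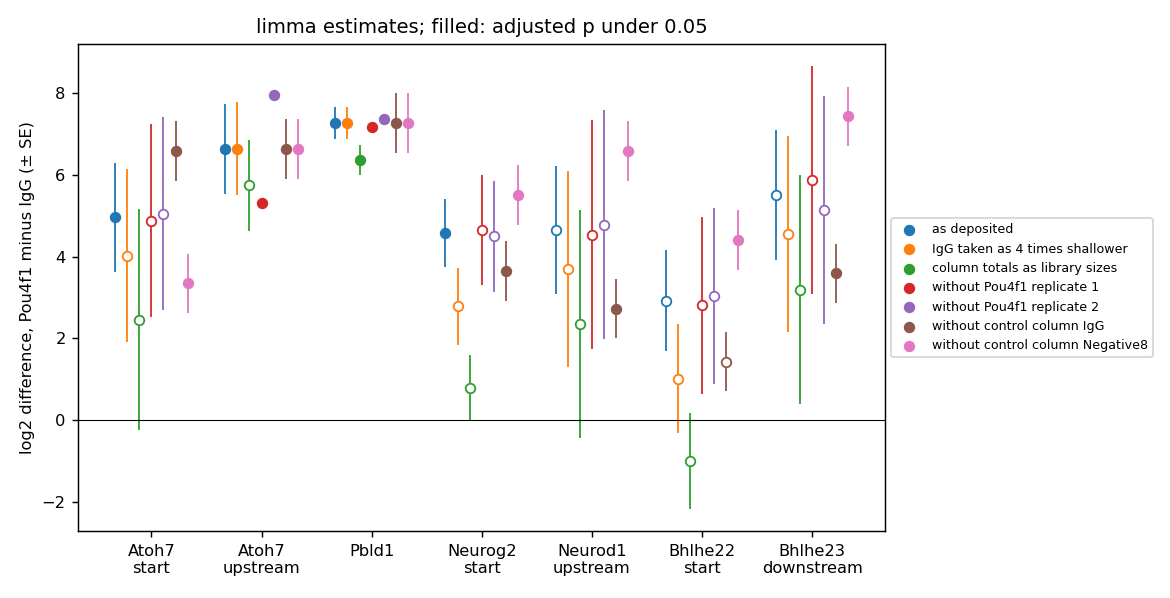
The limma log2 difference of Pou4f1 minus IgG with its SE for the 7 regions, as deposited and under 6 alternatives, filled where the adjusted p was under 0.05. In fits with 1 control left all regions share 1 SE, in those with 1 Pou4f1 library the spread is that of the controls, and the Bhlhe22 value scaled by column totals (-1.01) is the one below 0.

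In level all but the Bhlhe23 region lay below the median of the table. Their mean Pou4f1 signals ran from 95.2 at the Atoh7 start to 177 at Bhlhe23, beside a median of 173 and an interquartile range of 119 to 261 over all regions. The median rank was 5037 of 8038, and the highest rank was 3901. Replicate 1 was above replicate 2 in 5 of 7 regions, as in 66.8% of all. Apart from the region upstream of Atoh7, the ratio of replicate 1 to replicate 2 ran from 0.606 to 1.19.

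**Figure D4:**
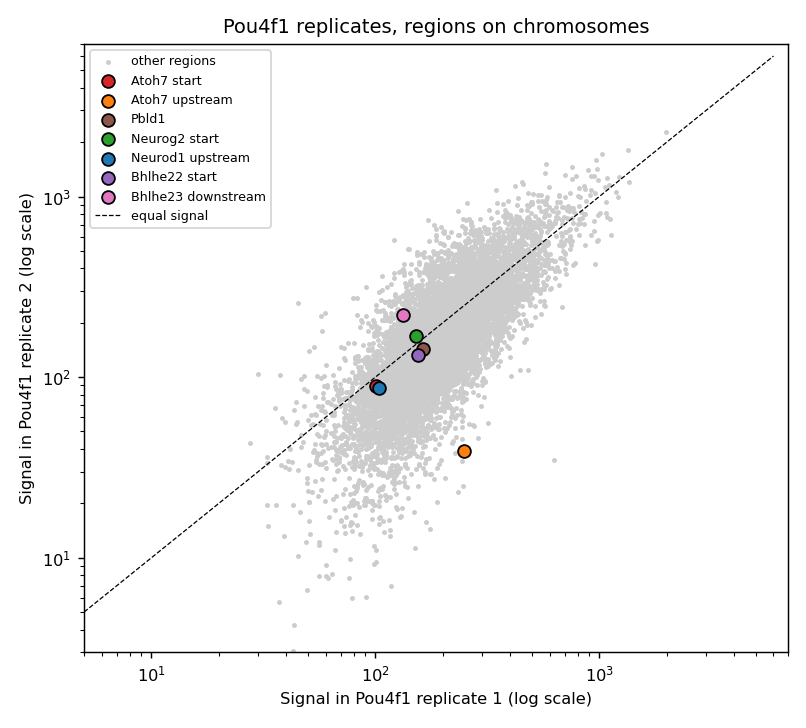
Signal of each region in Pou4f1 replicate 1 against replicate 2, both on log axes, with grey points for the table and coloured points for the 7 regions. The region upstream of Atoh7 (248 and 38.8) lies at the lower edge of the cloud. Bhlhe23 (134 and 220.5) lies above the dashed line of equal signal, and the others lie near that line.

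The GC content was 65.6% at Neurog2, 63.4% at Bhlhe22, 59.5% at the Atoh7 start and 59.7% upstream of Neurod1. It was 51.0% in the distal Bhlhe23 region, 49.7% in Pbld1 and 45.2% upstream of Atoh7. Over all regions on chromosomes the median was 62.7% within 1 kb of a transcription start and 49.0% farther away. Pbld1 and Atoh7 upstream, within 1 kb of a start that is not protein-coding, were below the first median, and so was the Atoh7 start region. Neurog2 and Bhlhe22 were above it. Neurod1 upstream and Bhlhe23 downstream, farther away, were above the second median. The region upstream of Atoh7 lay 158 bp from the start of Gm38063, and 10.3% of all regions had a lower GC content.

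**Figure D5:**
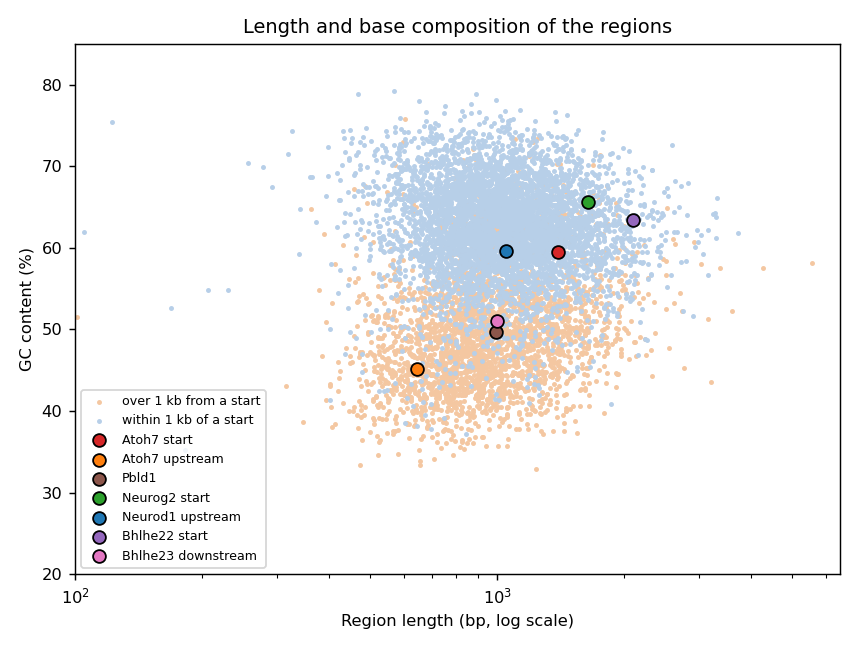
Length (bp, log axis) and GC content (%) of regions within 1 kb of a transcription start (blue) and farther away (orange), with the 7 regions marked. Bhlhe22 (2097 bp) and Neurog2 (1641 bp) lie among long, GC-rich regions and the region upstream of Atoh7 (646 bp, 45.2%) among short, AT-rich ones.

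In the central 200 bp the POU letters were in 1 of 7 regions, beside 8.08% of all regions on chromosomes (1.30% within 1 kb of a start and 20.2% farther away). Over whole regions they were in 2 of 7 (Atoh7 upstream and Pbld1), beside 21.7% of all. The octamer ATGCAAAT was in none, centrally or over the whole region. The core TAATTA, which can share bases with the POU letters, was in 0 of 7 windows (3.49% of all) and in 2 of 7 whole regions, those of Pbld1 and Bhlhe22. The E-box letters CAGCTG or CAGATG were in 2 of 7 windows, beside 22.7% of all, and in 7 of 7 whole regions, beside 67.7%. The whole Neurog2 region held 5 such E-boxes and the Atoh7 start region 4. Any E-box, CANNTG, which includes the other two, was in 3 of 7 windows, beside 51.6% of all. Regions differ in length, so shares over whole regions compare unequal windows. A match describes letters and not a bound site.

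Promoters of 8 of the 9 genes, 9 sequences in all, were in the RefSeq promoter table (GRCm38.p6), which holds a fixed stretch around each start. The POU letters were in that of Neurog2, 1 of 9 beside 3.75% of 32851 promoters. The E-box letters were in those of Atoh7, Neurod2 and Neurod4, beside 30.6% of all promoters.

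For the 4 genes without a region, chosen here for that lack, the distance to the nearest one is a description. The nearest region to Olig2 (ENSMUSG00000039830.9, chr16:91225457-91228677) was 180 kb away at Paxbp1, and the region-free span of 439 kb also held the start of Olig1, its paralog. For Ptf1a (ENSMUSG00000026735.2, chr2:19445663-19447501) the nearest was 209.7 kb away at Otud1, in a span of 658 kb with 3 other coding starts. For Neurod2 (ENSMUSG00000038255.6, chr11:98325415-98329648) it was 289 kb away, nearest to Stac2, and 20 other coding genes started in its span of 645 kb. Neurod4 (ENSMUSG00000048015.4, chr10:130268152-130280240) was 1462 kb from its nearest region, at Dnajc14, with none on its other side up to the end of the chromosome. In that region-free stretch 75 other coding genes started. A gene without a region is one where none was deposited, and signal below the authors' calling threshold cannot be seen in these data.

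Among 27 other bHLH genes, 17 had a region within 50 kb, beside 53.6% of all protein-coding genes, and 13 had one nearest to their own start, beside 26.9%. The 13 were 3 of 14 relatives of the proneural class (Neurog1, Atoh1 and Nhlh1), 2 of 3 E proteins (Tcf3 and Tcf4), 3 of 4 Id inhibitors (all but Id1) and 5 of 6 Hes and Hey repressors (all but Heyl), and differences between these families were not tested. Among those with no region within 50 kb were Neurog3, Neurod6, Olig1, Olig3, Nhlh2 and Tal1. Of the 25 regions at these loci, 18 were higher in Pou4f1 than in IgG and none was lower, beside the 64.8% called over the table, and their median log2 difference was 4.01. The region at the start of Nhlh1, a bHLH gene of differentiating neurons, had Pou4f1 signals of 453 and 601 with 0 in both controls. It ranked 300 of 8038, above all 7 regions of the proneural loci, with a log2 difference of 9.03 (SE 0.41) and an adjusted p of 0.00222 by limma. The start regions of Neurog1 and Atoh1, relatives of Neurog2 and Atoh7, ranked 5551 and 7772. Their signals were 136 and 127 against 22.8 and 0 for Neurog1, and 74.5 and 50.8 against 22.4 and 5.37 for Atoh1, and neither passed the test (adjusted p = 0.0882 and 0.0795 by limma). Of the other regions that cover a start, those of Hes6, Hey1 and Hey2 passed (adjusted p = 0.0220, 0.00251 and 0.0227 by limma). Those of Id3 and Hes5 did not (0.0624 and 0.0916).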

How the data were processed

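CUT&Tag was done on E16.5 retinas with anti-Pou4f1 (2 libraries) and rabbit IgG (2). Per the submitters' notes and methods, the authors used Bowtie2 2.4.5 for alignment to mm10 and SEACR (relaxed) for region calls. The deposited table gives a signal for 8038 regions in 4 columns. How the signal was scaled and averaged, and whether calls used pooled libraries, is stated in none of the sources. The column named Negative8 was inferred to be IgG, the sole negative control of the methods. Depth is unknown. All values times region length were whole multiples of a library step (tolerance 0.05), which reads as depth summed over bases and not as a number of reads, so no count test was run.

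Distances run from region midpoints to GENCODE M21 starts. limma 3.58.1 in R 4.3.3 compared log2(signal + 1) over all regions, without covariates or a filter, with Benjamini-Hochberg adjustment and a threshold of 0.05, after tests on simulated data. Motifs were searched with Python 3.11.15. Named were all regions within 50 kb of the 9 genes, and regions that cover the starts of other bHLH genes. The genes and lists were chosen with earlier results of these data known. Alternatives changed the scaling, pseudocount, filters, window and libraries.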

Additional observations from a re-analysis of the deposited data

How the results depend on the processing

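No paired analysis was possible because the IgG columns carry no replicate number. With all 4 libraries, Pbld1 kept its call under every alternative fitted to it, and the region upstream of Atoh7 under all but column totals (adjusted p = 0.0599 by limma). Both controls are at 0 in these regions, so taking IgG as shallower left their differences unchanged by construction and could not test these calls. Of all regions with both controls at 0, 99.7% were called in the main fit. The count of 4 calls became 2 with IgG taken as 2 times or 4 times shallower, 1 with column totals as library sizes and 7 with a pseudocount of 10, and ran from 2 to 7 over the libraries left out in turn. The median log2 difference of 4.96 became 2.46 with column totals, 6.68 with a pseudocount of 0.1 and 3.36 with a pseudocount of 10, and ran from 3.64 to 6.59 over the libraries left out. Over all 8038 regions 5205 calls became 2949 and 2152 with IgG taken as shallower, 1821 with column totals and 7443 with a pseudocount of 10. The Bhlhe22 difference reversed to -1.01 with column totals, a setting that lowers the differences by construction. Atoh7 start lost its call with IgG taken as 2 times shallower (adjusted p = 0.118 by limma), with column totals (0.600) and with a pseudocount of 0.1 (0.131). It also lost the call with a minimum log2 difference of 1 (0.0588) and without either Pou4f1 replicate. Neurog2 lost its call with IgG taken as 2 times (0.0602) or 4 times shallower (0.153), with column totals (0.590) and without either Pou4f1 replicate. With IgG 4 times shallower Atoh7 start had 0.246. Neurod1, Bhlhe23 and Bhlhe22 gained a call with a pseudocount of 10. Bhlhe23 also gained one with the spread fitted as a trend on signal level (adjusted p = 0.04998 by limma). Neurod1 and Bhlhe23 gained one without either control library. With 1 control left the spread is 1 value pooled over all regions, with 1 Pou4f1 library left it rests on the control pair, and the lone library is assumed to vary likewise. Within 100 kb there were 11 regions in place of 7. The median rank of 5037 became 4354 by the lower of both replicates and 4467 by signal times length. The POU letters were in 2 whole regions, and the octamer and the homeodomain core in 0 windows. The E-box letters were in 5 regions in the central 400 bp, beside 38.9% of all regions on chromosomes. Over whole regions they were in 7, beside 67.7% of all. Apart from what the settings themselves change, the cause was not tested. The unknown depth and the IgG steps limit the precision of each difference.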
